A study of Mus musculus with 35 samples.

Results

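The regions described here were the 500 stretches of chromatin whose ATAC-seq signal stood highest in the 3 treatments that contained CHIR99021 relative to the 4 that did not. They were 500 of 35931 regions on chromosomes 1 to 19, out of 36431 in the deposited ATAC-seq table. Mouse embryonic fibroblasts were sampled on day 4 of chemical reprogramming, with 2 ATAC-seq libraries for each of 7 treatments. H3K4me3 and H3K27me3 ChIP-seq was analysed for 6 of these treatments, with 1 library per mark and treatment. The letters of a treatment name its chemicals, with C for CHIR99021, 6 for RepSox, F for Forskolin, A for AM580 and E for EPZ004777. C6FAE held all of these chemicals, 6FAE lacked CHIR99021, CFAE lacked RepSox and C6AE lacked Forskolin. AE held neither CHIR99021, RepSox nor Forskolin by its letters, and Basal and Control (Ctr) completed the set. The fibroblasts came from embryos of ICR mice per the study's methods, and their identity was not checked against marker genes because the regions were not joined to genes. What Basal contained was not given in the sources used here. The pair C6FAE and 6FAE was the only one whose names differed by CHIR99021 alone.

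CHIR99021 inhibits the kinase GSK3, which marks β-catenin for destruction. When GSK3 is inhibited, β-catenin accumulates, enters the nucleus and acts with TCF and LEF factors at enhancers and promoters, as it does in Wnt signaling. RepSox inhibits the TGF-β receptor ALK5, and Forskolin raises cAMP by activating adenylyl cyclase. ATAC-seq reads mark chromatin that a transposase can enter. H3K4me3 is found mainly at active and poised promoters, and H3K27me3 is deposited by Polycomb complexes at silent developmental genes.

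The members were chosen by their own ATAC-seq values, so their accessibility in these columns is given as a description with no test. The table held 1 RPKM column per treatment, merged by the authors over both libraries. Each column was put on the scale log2(RPKM + 1), and the median of the column over all regions was subtracted. The score of a region was the lowest of its centred values in C6AE, CFAE and C6FAE minus the highest of those in 6FAE, AE, Basal and Control. The highest score was 1.21, or 2.31-fold on this scale, the median of the 500 was 0.32 (1.25-fold) and the last member had 0.22 (1.16-fold). Only 4 members reached a score of 1 (2-fold), which was 0.0111% of the autosomal regions, and 57 reached 1.5-fold, or 0.159%. The working name of the set, regions open only with CHIR99021, therefore went against the data for most members, and they are called regions higher with CHIR99021 here.

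Inside and outside the limit of 500, the scores were nearly alike, though the RPKM values differed. The last member, chr16:20589108-20590549 (mm9), had 26.0 RPKM in C6FAE, 24.1 in CFAE, 15.8 in C6AE, 15.3 in 6FAE, 15.7 in AE, 11.2 in Basal and 12.8 in Control. The first region outside, chr2:166560197-166562770, had a score of 0.22 as well, with 16.9 RPKM in C6FAE, 17.2 in CFAE, 10.8 in C6AE, 10.8 in 6FAE, 6.68 in AE, 10.1 in Basal and 6.25 in Control. In both regions C6AE was level with the highest of the treatments without CHIR99021 before centring.

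At the members, accessibility was above that of the typical region with CHIR99021 and well below it without. The median RPKM of the members was 22.3 in C6FAE, 21.2 in CFAE and 13.7 in C6AE, against medians over all autosomal regions of 17.7, 18.5 and 12.2. It was 10.1 in 6FAE, 8.31 in AE, 8.02 in Basal and 6.15 in Control, against 14.3, 16.4, 14.6 and 11.6 over all regions. The median member had a percentile among regions of 71.2 in C6FAE, 63.8 in CFAE and 61.1 in C6AE, and of 16.0 to 22.8 in the other 4 columns. Among the most open 10% of regions of a column were 82 members (16.4%) in C6FAE, 67 (13.4%) in CFAE and 56 (11.2%) in C6AE, each above that 10%. In the other columns there were 0 in 6FAE, 1 in AE, 0 in Basal and 0 in Control. A single member was listed at 0 in a column.

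**Figure D1:**
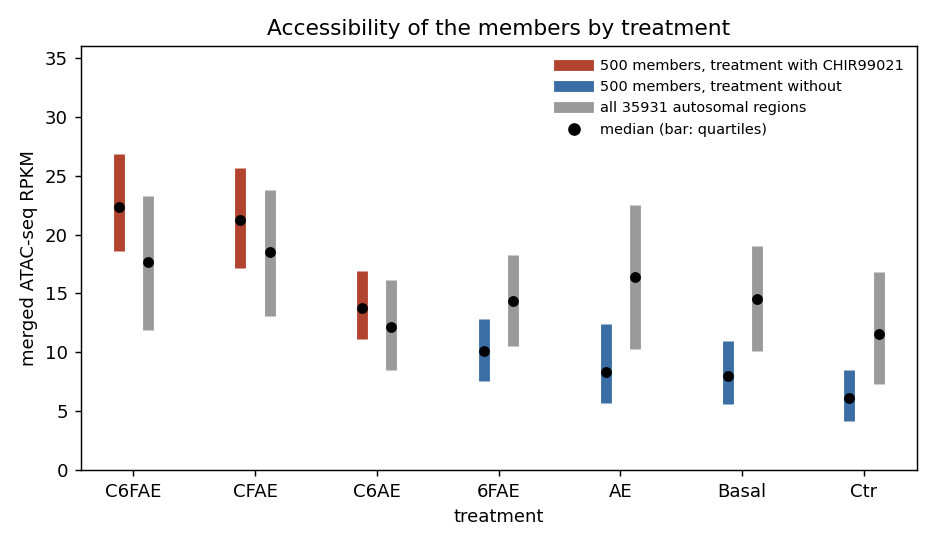
Merged ATAC-seq RPKM (vertical axis) in the 7 treatments (horizontal axis) at the 500 members, in red with CHIR99021 and blue without, and at all 35931 autosomal regions in grey. Dots are medians and bars run from the lower to the upper quartile over regions. The member medians lie above the grey ones in C6FAE, CFAE and C6AE and below them in 6FAE, AE, Basal and Ctr.

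The order of the columns also held for most members before any centring. On the deposited RPKM, all 3 CHIR99021 columns exceeded the other 4 in 449 members (89.8%), a pattern found in 4.84% of all autosomal regions. In the other 51 members the C6AE column was at or below the highest column without CHIR99021. No member had CFAE or C6FAE there. The RPKM of C6AE also ran lowest of the 3 over all regions. After centring, C6AE was the lowest CHIR99021 column in 206 members, CFAE in 182 and C6FAE in 112. The matching shares over all regions were not counted.

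Between C6FAE and 6FAE, the matched pair, the centred difference of log2(RPKM + 1) at the members had a median of 0.73 (1.66-fold) and a range of 0.22 to 2.74. A difference of at least 2-fold was found in 135 members, against 3.58% of all autosomal regions, and nothing is read from this since the rule used both columns. The differences among the CHIR99021 treatments, whose sign the rule did not fix, went both ways. C6FAE minus CFAE had a median of 0.12 and a range of -1.08 to 1.32, C6FAE minus C6AE a median of 0.12 and a range of -2.08 to 1.47, and CFAE minus C6AE a median of 0.03 and a range of -2.32 to 1.02. Over all autosomal regions the medians of these differences were 0.01, -0.02 and -0.02. C6FAE exceeded CFAE in 326 members and C6AE in 321, and the matching shares over all regions were not counted.

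Among the treatments without CHIR99021, 6FAE had the highest centred value in 266 members, Control in 82, Basal in 79 and AE in 73. 6FAE was above AE in 383 members, with a median difference of 0.33, above Basal in 370 with 0.24, and above Control in 370 with 0.30. Over all regions these medians were 0.01, 0.02 and -0.05, and the shares that match the counts of members were not counted. For AE minus Basal the members had a median difference of -0.08 (quartiles -0.42 and 0.22), against 0.003 (-0.36 and 0.32) over all regions. For Basal minus Control it was 0.02 (-0.29 and 0.40), against -0.07 (-0.44 and 0.37). By the median differences, 6FAE lay above AE, Basal and Control, and it was the highest of these columns in 266 members (53.2%). Without the shares over all regions, no more is read from the counts. The place of 6FAE below the CHIR99021 columns was fixed by the rule. Each of these values rests on 1 merged column, so they carry no replicate error.

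**Figure D2:**
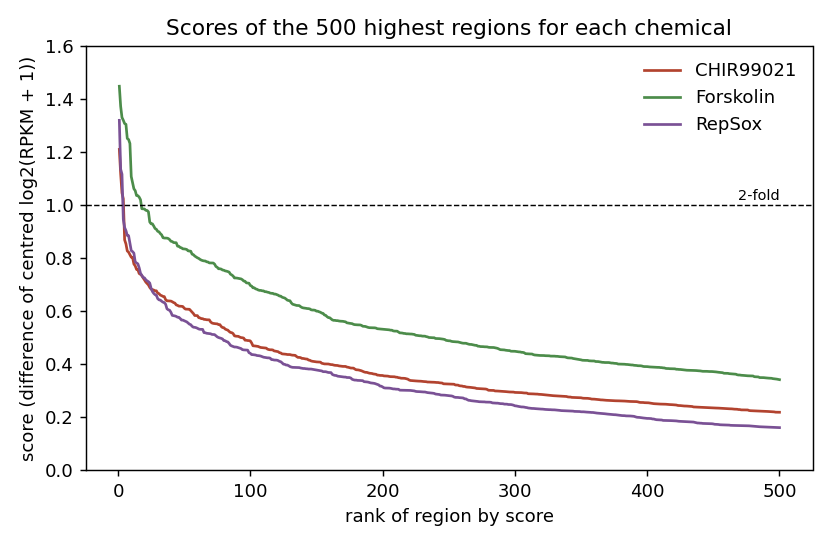
Score (vertical axis, difference of centred log2(RPKM + 1)) of the 500 highest regions by rank (horizontal axis) for CHIR99021 and, by the same rule, for Forskolin and RepSox. The dashed line marks 2-fold, which 4, 17 and 3 regions reached, and the Forskolin curve stays above the other two through rank 500.

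The same rule was applied to the other chemicals that were left out 1 at a time. A score above 0 was found in 1664 regions for CHIR99021, 2179 for Forskolin and 1359 for RepSox. A score of at least 1.5-fold was found in 57, 156 and 40 regions, and the 500th region had a score of 0.22, 0.34 and 0.16. The highest score was 1.21 for CHIR99021, 1.45 for Forskolin and 1.32 for RepSox. By these counts and the 500th score, CHIR99021 lay below Forskolin and above RepSox, but at ranks 1 to 3 and 5 to 25 the RepSox score was the higher, and none of these differences was tested. The 3 sets cannot share a region, because each rule places 1 column low that the others place high.

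The 10 members of highest score were short regions spread over 8 chromosomes, and none overlapped a region of either histone table. The positions are those of mm9 and were not joined to genes. The first, chr4:82496254-82496874, had 19.9 RPKM in C6FAE, 11.1 in CFAE and 16.9 in C6AE, and between 2.09 and 3.34 in the other columns. It had a listed peak in 5 of the 6 CHIR99021 libraries and in none of the other 8. The fold enrichment, which is the pileup of a peak relative to the modelled background, was 2.83 and 1.78 in the C6FAE libraries, 2.43 in CFAE library 1, and 2.43 and 2.11 in the C6AE libraries. CFAE library 2 listed no peak there.

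The second, chr3:154213303-154213861, had 22.2 RPKM in C6FAE, a higher value in CFAE and 14.9 in C6AE, and 4.75 in 6FAE, 7.36 in AE, 6.65 in Basal and 5.99 in Control. Peaks were listed in 5 CHIR99021 libraries and in AE library 2, where the fold enrichment was 1.76. The lowest of the CHIR99021 treatments, C6AE, was still above every treatment without it. The third, chr13:115839105-115840090, had 17.2 RPKM in C6FAE, 24.1 in CFAE and 12.0 in C6AE, and 5.07 in 6FAE, 7.22 in AE, 3.85 in Basal and 4.26 in Control. The fourth, chr10:48885373-48885880, had 25.4 RPKM in C6FAE and 11.1 in C6AE with CFAE between them, 5.94 in 6FAE, 2.85 in AE, 2.23 in Basal and 0.48 in Control. In this region the treatments without CHIR99021 were themselves spread, with 6FAE highest and Control lowest.

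The remaining 6 of the 10 had scores from 0.80 to 0.87, or 1.75- to 1.83-fold. They were chr15:94124332-94125504, chr17:91262305-91263213, chr17:36069339-36069850, chr7:83151329-83151972, chr17:57219343-57219991 and chr6:17803721-17805069. The region on chromosome 7 was the most open of the 10, with 34.2 RPKM in CFAE and 27.7 in C6FAE, and it also had the highest value without CHIR99021, 11.9 in 6FAE. The region on chromosome 6 had 19.8 RPKM in both C6FAE and CFAE, 15.3 in C6AE, 8.36 in 6FAE, 3.88 in AE, 4.75 in Basal and 1.76 in Control. It was listed in all 6 CHIR99021 libraries and in 2 of the other 8.

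**Figure D3:**
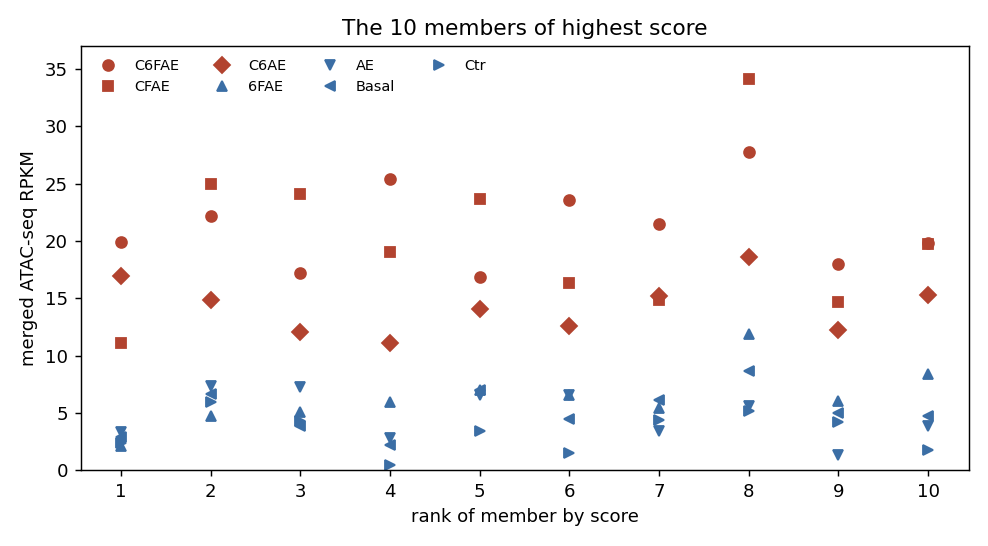
Merged ATAC-seq RPKM (vertical axis) of the 10 members of highest score by rank (horizontal axis), with 1 symbol per treatment, red with CHIR99021 and blue without. In each of the 10 the 3 red symbols lie above the 4 blue ones, and the lowest red symbol is C6AE in 8 of the 10 and CFAE at ranks 1 and 7.

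The peak lists of the 14 single libraries showed how the signal was divided between the 2 libraries of a treatment. They come from the same libraries as the merged columns and are not independent of the rule. No member had a listed peak in all 6 CHIR99021 libraries and in none of the other 8, and 0% of all regions did. The lists were long, with 191181 to 523278 peaks per library, and even without CHIR99021 the median member had a listed peak in 5 of 8 libraries, against 8 of 8 for the median region. A listed peak was absent from all 8 in 10 members (2.0%), against 0.245% of all regions. The share of CHIR99021 libraries with a listed peak was larger than that of the other libraries in 394 members (78.8%), against 31.2% of all regions.

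With the 20000 peaks of highest -log10 p kept in each library, the members were sparse outside CHIR99021. Of the 500, 323 (64.6%) had such a peak in none of the other 8 libraries, against 17.8% of all regions. The CHIR99021 libraries held a larger share in 450 members (90.0%), against 49% of all regions. None of the members had such a peak in all 6 CHIR99021 libraries and in none of the others, a pattern found in 3 of all regions (0.00835%). The median member had such a peak in 2 of the 6 CHIR99021 libraries, as did the median region of the table, and in 0 of the other 8, against 2 for the median region.

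Library by library, the share of members with one of the 20000 highest peaks was 57.0% (95% Wilson interval 52.6 to 61.3) and 37.6% (33.5 to 41.9) in C6FAE, and 36.4% (32.3 to 40.7) and 46.8% (42.5 to 51.2) in CFAE. It was 30.6% (26.7 to 34.8) and 12.8% (10.2 to 16.0) in C6AE. It was 4.0% (2.60 to 6.10) and 22.8% (19.3 to 26.7) in 6FAE, and between 4.8% and 9.6% in the 6 libraries of AE, Basal and Control. The groups overlapped at 1 point: 6FAE library 2 held more of the members than C6AE library 2. These were the deepest and the shallowest of the 14 ATAC-seq libraries, with 8764791 and 3346418 tags, and the part of depth in this was not tested. Each share of members was also divided by the share of all regions in the same library. The ratio ranged from 0.60 to 1.20 in the 6 CHIR99021 libraries and from 0.19 to 0.49 in the other 8. The rule chose the members by the merged signal of these libraries, so nothing is read from the gap. The intervals cover the number of regions only, and not the choice of members by the same libraries.

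**Figure D4:**
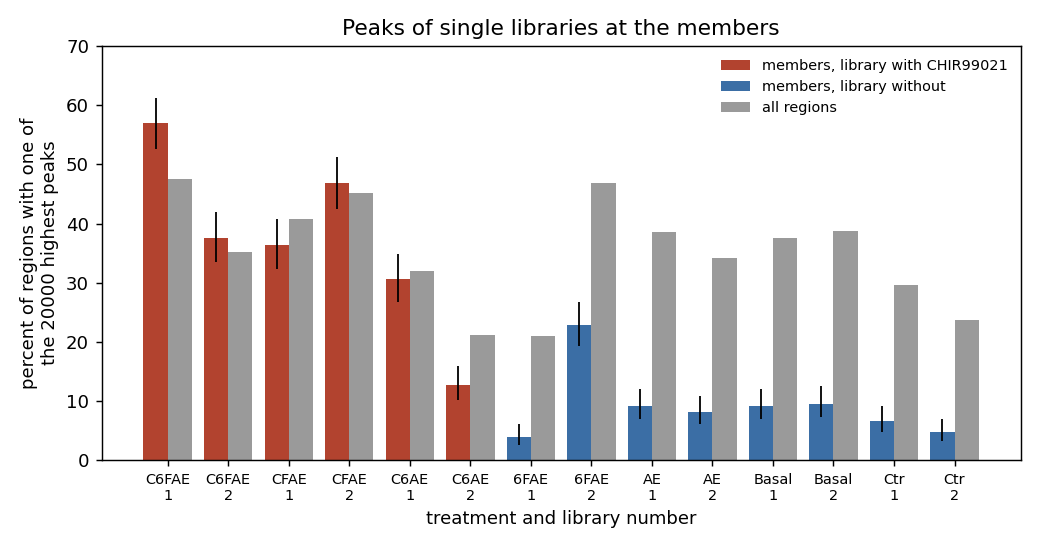
Percent of regions (vertical axis) that overlapped one of the 20000 highest peaks of each ATAC-seq library (horizontal axis), for the 500 members in red with CHIR99021 and blue without, with 95% Wilson intervals, and for all 35931 regions in grey. The members fall below the grey bars by the most in the 8 libraries without CHIR99021, and 6FAE library 2 is the highest of these at 22.8%.

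The bounds of the regions were compared with those of the listed peaks. Each of the 35931 regions shared a start or an end with a listed peak of at least 1 of the 14 libraries. Bounds were shared with more than 1 library at 195 members (39.0%), so they do not name a single library of origin. Of the members, 253 (50.6%) shared one with C6FAE library 1, against 25.8% of all regions, and 174 (34.8%) with CFAE library 2, against 17.2%. 6FAE library 1 shared a bound with 0 members, against 2.75% of all regions. Both leading libraries were among the 5 deepest ATAC-seq libraries, and the part of depth in this was not tested.

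Members were shorter than the typical region. Their median length was 1180 bp (range 500 to 10525), against 1483 bp over all regions, and 201 (40.2%) were under 1 kb, against 32.9%. They lay on all 19 autosomes, from 0.822% of the regions of chromosome 11 to 2.13% of those of chromosome 13. Another member lay within 10 kb of 6 members, in 3 pairs on chromosomes 1, 4 and 8, and within 1 Mb of 220. Matching counts for other regions were not made, so neither scatter nor clustering is read from these. The densest stretch of 1 Mb held 5 members among 21 regions, at chr1:183403105-184079781. The closest pair was chr8:25647607-25648301 and chr8:25649379-25650162, 1078 bp apart.

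The histone tables were measured by another assay and were not used by the rule. An H3K4me3 region overlapped 73 members (14.6%, 95% Wilson interval 11.8 to 18.0), against 30.9% of all autosomal regions. The median distance from a member to the nearest H3K4me3 region was 55.0 kb, against 21.1 kb. Length moved with this share: it was 9.45% for members under 1 kb, against 5.54% of all regions of that length, 11.6% against 21.1% from 1 to 2 kb, and 30.7% against 60.5% from 2 kb. The share of members was thus below that of all regions of like length at 1 kb and over, and above it under 1 kb, with no test of either. By the same rule, the share was 15.0% for the RepSox set and 3.20% for the Forskolin set, so a low share was found with those chemicals too.

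An H3K27me3 region overlapped 61 members (12.2%, interval 9.62 to 15.4), against 9.38% of all regions, 18.0% of the RepSox set and 5.80% of the Forskolin set. By length, the share was 9.95% of members against 9.0% of all regions under 1 kb, 10.6% against 9.40% from 1 to 2 kb, and 19.8% against 9.71% from 2 kb. Both marks were found at 30 members (6.0%), against 4.2% of all regions. Neither was found at 396 (79.2%), against 64.0%. The members with an H3K4me3 region were more open than the other members in all 7 columns. Median RPKM was 25.5 against 21.8 in C6FAE, 24.1 against 20.3 in CFAE and 17.2 against 13.4 in C6AE. It was 15.0 against 7.65 in AE and 9.83 against 5.72 in Control. Those with an H3K4me3 region were also longer, with a median of 1629 bp against 1142 bp.

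At the 73 H3K4me3 regions that overlapped members, the mark was higher in the CHIR99021 treatments after centring. Before centring, its median RPKM was 11.9 in C6FAE, 15.5 in CFAE and 28.1 in C6AE. It was 9.38 in 6FAE, 16.9 in AE and 15.8 in Basal, so only C6AE lay above all 3 without CHIR99021. The median of the centred log2(RPKM + 1) of H3K4me3 was 0.05 in C6FAE, -0.02 in CFAE and 0.18 in C6AE, and -0.23 in 6FAE, -0.15 in AE and -0.16 in Basal. At the 10798 H3K4me3 regions that overlapped any autosomal ATAC-seq region it lay between 0.01 and 0.05 in all 6. The difference between the mean of the 3 libraries with CHIR99021 and the mean of the 3 without had a median of 0.15 at the members (95% order-statistic interval over regions 0.10 to 0.34) and of -0.04 over all. It was above 0 at 53 of 73 regions (72.6%), against 42.1% over all. The 3 libraries with CHIR99021 did not overlap the other 3 and lay above them at 20 of the 73 (27.4%), against 7.7% over all. They lay below them at 3 (4.11%), against 9.46% over all. C6FAE exceeded 6FAE at 52 of the 73 (71.2%), with a median difference of 0.25, against 48.5% and -0.01 over all.

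The same H3K4me3 difference was found where Forskolin or RepSox, and not CHIR99021, had chosen the regions. Its median was 0.27 over 16 H3K4me3 regions of the Forskolin set and 0.19 over 75 of the RepSox set. The 3 libraries with CHIR99021 lay above the other 3 at 5 of the 16 and at 19 of the 75. Since C6FAE is on the high side in all 3 rules, and AE and Basal on the low side, these sets share most of their columns, and the H3K4me3 difference was not shown to be particular to the regions higher with CHIR99021. With 1 library per treatment there is no replicate error and no test. The C6AE library held 745089 tags, the fewest of the H3K4me3 libraries, and without it the median difference at the members was 0.17.

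Single members differed widely in H3K4me3. Of the 5 members of highest score with an H3K4me3 region, chr2:31701351-31701947 had the highest score, 0.67. Its H3K4me3 was 7.76 RPKM in C6FAE, 13.4 in CFAE and 31.3 in C6AE, and 4.76 in 6FAE, 11.5 in AE and 12.8 in Basal. After centring, the difference was 0.60. The centred values were -0.51 in C6FAE, -0.21 in CFAE and 0.33 in C6AE, against -1.08 in 6FAE, -0.66 in AE and -0.44 in Basal. C6FAE thus lay below Basal at this member. Its ATAC-seq RPKM was 23.5 in C6FAE, 25.3 in CFAE and 22.1 in C6AE, and 11.1 in 6FAE, 6.46 in AE, 10.6 in Basal and 9.38 in Control. This member overlapped an H3K27me3 region as well. At chr2:118502545-118503993 the difference was 0.63, but it rested on C6AE, with 56.8 RPKM of H3K4me3 against 8.77 in C6FAE and 13.7 in CFAE. At chr15:10399581-10400890 and chr13:14614278-14615533 the difference was -0.03 and -0.05, and at chr5:9160819-9162747 it was -0.36, so the mark did not follow accessibility at these 3.

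**Figure D5:**
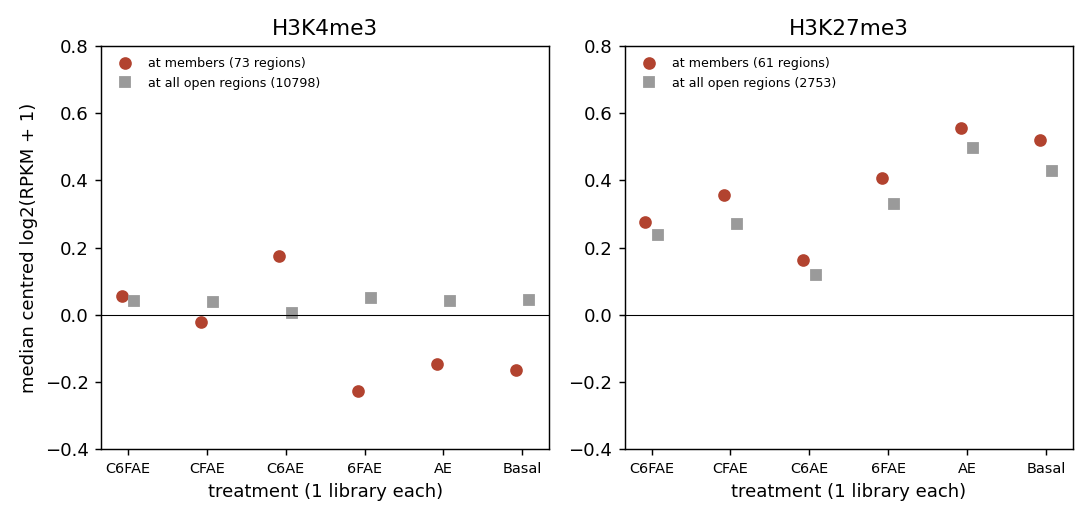
Median centred log2(RPKM + 1) (vertical axes) of H3K4me3 (left) and H3K27me3 (right) in 6 treatments (horizontal axes, 1 library each) at mark regions that overlap members, in red, and at those that overlap any autosomal ATAC-seq region, in grey. For H3K4me3 the red points of C6FAE, CFAE and C6AE lie above those of 6FAE, AE and Basal while the grey points are level, and for H3K27me3 red and grey points follow the same order.

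For H3K27me3 the members followed the open regions as a whole. At the 61 H3K27me3 regions the median of the centred value was 0.28 in C6FAE, 0.36 in CFAE and 0.16 in C6AE, and 0.41 in 6FAE, 0.56 in AE and 0.52 in Basal. The corresponding medians at 2753 H3K27me3 regions of open chromatin were 0.24, 0.27, 0.12, 0.33, 0.50 and 0.43. The difference with minus without CHIR99021 had a median of -0.26 at the members (interval -0.38 to -0.11) and of -0.25 over all. The 3 libraries with CHIR99021 lay below the other 3 at 21 of 61 regions (34.4%), against 30.3% over all. The 6FAE library held 633980 tags, the fewest of the H3K27me3 libraries. The member of highest score with this mark, chr2:19375866-19377668, had 5.23 RPKM in C6FAE, 5.84 in CFAE and 9.21 in C6AE, and 9.49 in 6FAE, 10.8 in AE and 11.9 in Basal.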

How the data were processed

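Per the file headers, peaks were called by the authors library by library (MACS 2.1.2, p-value cutoff 0.05, tags extended to 250 bp). The deposited lists give the pileup (tag coverage), -log10 p and fold enrichment of each peak. They also give a -log10 q, although the headers say that q was not calculated. The authors deposited tables of RPKM per region for ATAC-seq (merged over libraries) and for each mark. The submitters' processing notes name mm9, Bowtie2, MACS2 and deepTools 3.1.0. No mm9 genome or annotation was used here, so regions were not joined to genes, sequence or motifs.

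Members, lists and named regions were chosen with earlier results of these data known. Named were the 10 members of highest score, regions at the limit, and the 5 highest with each mark. A further rule, the highest members with a listed peak in all 6 CHIR99021 libraries and in none of the other 8, found 0. The pseudocount was 1, and an overlap was at least 1 bp. In the mark tables, 2 columns titled as control were not used because their labels give C6FAE. Total tags ranged from 3346418 to 8764791 in ATAC-seq. Intervals were computed over regions and hold no replicate error. Reads carried no molecular identifiers, and the labels do not say whether libraries came from separate cultures. The scoring was tested on simulated data, where the raised regions rose by more than the highest score found here. That check therefore does not cover scores as small as those of most members. Alternatives changed the pseudocount, scaling, filter, chromosomes, score, peaks, overlap and libraries. The tools were matplotlib 3.10.9, scipy 1.17.1, pandas 2.3.3 and numpy 2.4.6 under Python 3.11.15.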

Additional observations from a re-analysis of the deposited data

How the results depend on the processing

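Which regions were chosen depended on the scaling and on single columns. Of the 500 members, 238 were chosen again with no centring, 317 when regions of low mean RPKM (below its lower quartile) were dropped, and 150 with means in place of the lowest and highest column. Leaving a column out of the score kept 150 without 6FAE, 220 without C6AE, 244 without CFAE, 279 without C6FAE and 322 without Control. The other 7 alternatives kept 363 to 498. The count of regions with a score of at least 1, 4 as reported, was 0 with a pseudocount of 10, 2 with quantile normalization, 1 with the filter on low RPKM and 840 with means. It was 9 without Control, 9 without Basal, 8 without AE, 122 without 6FAE, 19 without C6AE, 23 without CFAE and 7 without C6FAE, and 57 at 1.5-fold. A column left out of the lowest or highest can only raise a score.

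Members with a peak in every CHIR99021 library and in no other numbered 0 as reported, 1 with peaks covering at least 50% of the region, and 8 with 1 library of every CHIR99021 treatment. They ranged from 0 to 2 when 1 library was left out, with 2 without CFAE library 2 or 6FAE library 2. The share of members with H3K4me3 was 9.60% in the 250 regions of highest score and 20.2% in the 1000 highest, and that with H3K27me3 was 9.20% in the 250 highest. The median H3K27me3 difference was -0.47 with no centring and -0.077 for C6FAE minus 6FAE alone, and ranged from -0.35 to -0.17 with 1 library left out. The median H3K4me3 difference stayed above 0 in its 10 alternatives, from 0.10 to 0.25, and ranged from 0.16 to 0.20 with 1 library left out. The motif alternatives were not run, since no mm9 genome was used here. No paired analysis was run, since no result comes from a test. C6AE library 2 was the shallowest ATAC-seq library, and the part of depth was not tested.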
